A study of Mus musculus with 4 samples.

Results

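Hypoxia and the cytokine IL6 were each applied to RAW264.7 macrophages, alone and together, and the question taken up here is where the response to hypoxia in the presence of IL6 differed from the response without it. RAW264.7 is an established mouse macrophage line. All cells had 4 days of culture, and the conditions were hypoxia at 1% oxygen with IL6 (HC+IL6), normoxia with IL6 (NC+IL6), hypoxia alone (HC) and normoxia alone (NC), with 1 Affymetrix expression array each. The methods give 25 ng/ml for IL6 under the preparation of conditioned media, and no oxygen level was found for normoxia. The interaction of a gene was taken as its log2 signal in HC+IL6 minus NC+IL6, less its log2 signal in HC minus NC. A value of 0 means that both responses add on the log2 scale, so that their folds multiply. A positive value (above additive) means that the signal in HC+IL6 was higher than the sum of both single responses, and a negative value (below additive) that it was lower. The same number is also the IL6 response in hypoxia minus the IL6 response in normoxia. Signals under a log2 signal of 7.5 were raised to 7.5, and probe sets that reached it on at least 1 array were used, which were 16282 of 45101 probe sets and, counted by symbol, 8791 of 18194 genes. A gene with several probe sets is given by the brightest, and a gene was called at an interaction of 1.0 or more or -1.0 or less, which is a 2-fold departure from additivity.

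In low oxygen the subunits HIF-1α and HIF-2α escape degradation and switch on genes for glucose use, vessel growth and mitochondrial turnover. IL6 binds its receptor together with the shared subunit gp130, which activates JAK kinases, the transcription factor STAT3 and the ERK pathway, and STAT3 then induces its own inhibitor Socs3. Macrophages also carry an interferon program of antiviral genes and a sterol program that is controlled by SREBP-2.

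With 1 array per condition, no interaction has a replicate check and no p-value is given. An additive model of 4 values leaves residuals of equal size on every array, so a departure cannot be assigned to any 1 condition. The responses to hypoxia alone and to IL6 alone share the NC array with the interaction, and they are given beside it as values only. Median log2 signals over the probe sets used lay between 9.45 and 9.54 on the 4 arrays, and the actin 3' to 5' ratio lay between 1.41 and 1.73, with the higher ratios on the arrays HC+IL6 and HC. The 18 spike-in control probe sets, which should not respond, had interactions between -0.23 and 0.50 with a median of 0.11. Between probe sets of the same gene the pooled SD of the interaction was 0.28 over 7301 probe sets of 2938 genes, and it was 0.39 at a mean log2 signal of 7.5 to 9 and 0.13 at 12 or more. This SD covers disagreement between probe sets on the same arrays and not variation between cultures.

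Most genes lay near additivity, but most also responded little. Of the 8791 genes, 8185 changed less than 2-fold with hypoxia alone and with IL6 alone, so their values say little about additivity. The median interaction was 0.00, the middle 90% of genes lay between -0.64 and 0.53, and 86.1% lay within 0.5 of additivity. Of the 8791 genes, 51 (0.58%) were above additive and 130 (1.48%) were below, and among all probe sets these counts were 109 (0.669%) and 215 (1.32%). Genes above additive thus made up 28.2% of those called, and 42.5% where additivity was taken on the linear scale, with HC+IL6 set against HC plus NC+IL6 minus NC. The largest interactions were negative: 8 genes reached -2.0 or less and 1 gene reached 2.0 or more. The rule caught Layn at 1.0 as the last gene above and Ggact at -1.0 as the last below, and Lpin1, which rounds to 1.0, and Ell at -0.99 lay just outside. Calls were more frequent among dim genes, at 4.22% of genes with a mean log2 signal under 8.5 and 0.708% of those at 12 or more. Where an array was under 7.5 the interaction can only be bounded. Of the genes above additive 29 were measured on all 4 arrays, 9 were at least as large as given, 3 at most as large and 10 not bounded, and of the genes below additive these numbers were 83, 16, 5 and 26.

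The genes below additive fell into a few patterns. Among the 130, 49 were 2-fold or more higher in hypoxia without IL6 and changed less than 2-fold with it, 33 were lower in hypoxia with IL6 and changed less than 2-fold without it, 43 passed 2-fold in neither comparison, and 1 gene, Cxcl2, had opposite responses. Among the 51 above additive, 22 were 2-fold or more higher in hypoxia with IL6 and changed less without it, 7 were lower in hypoxia without IL6 and changed less than 2-fold with it, and 20 passed 2-fold in neither. Over all genes used, 2.23% were higher and 1.26% lower in hypoxia with IL6, against 2.86% and 1.02% in hypoxia without IL6. IL6 raised 2.08% and lowered 1.58% in hypoxia, against 2.88% and 0.853% in normoxia. The counts of the patterns follow in part from these shares and from the rule, and are given as a description. Of 42 genes raised 2-fold or more by each agent alone, 41 had a negative interaction, with a median of -0.78. So did 168 of 199 raised by hypoxia only (median -0.47) and 159 of 200 raised by IL6 only (-0.49). Of 79 genes lowered by hypoxia only, 76 were positive (0.47), as were 47 of 65 lowered by IL6 only (0.34). These classes share arrays with the interaction, so their signs follow in part from that.

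**Figure D1:**
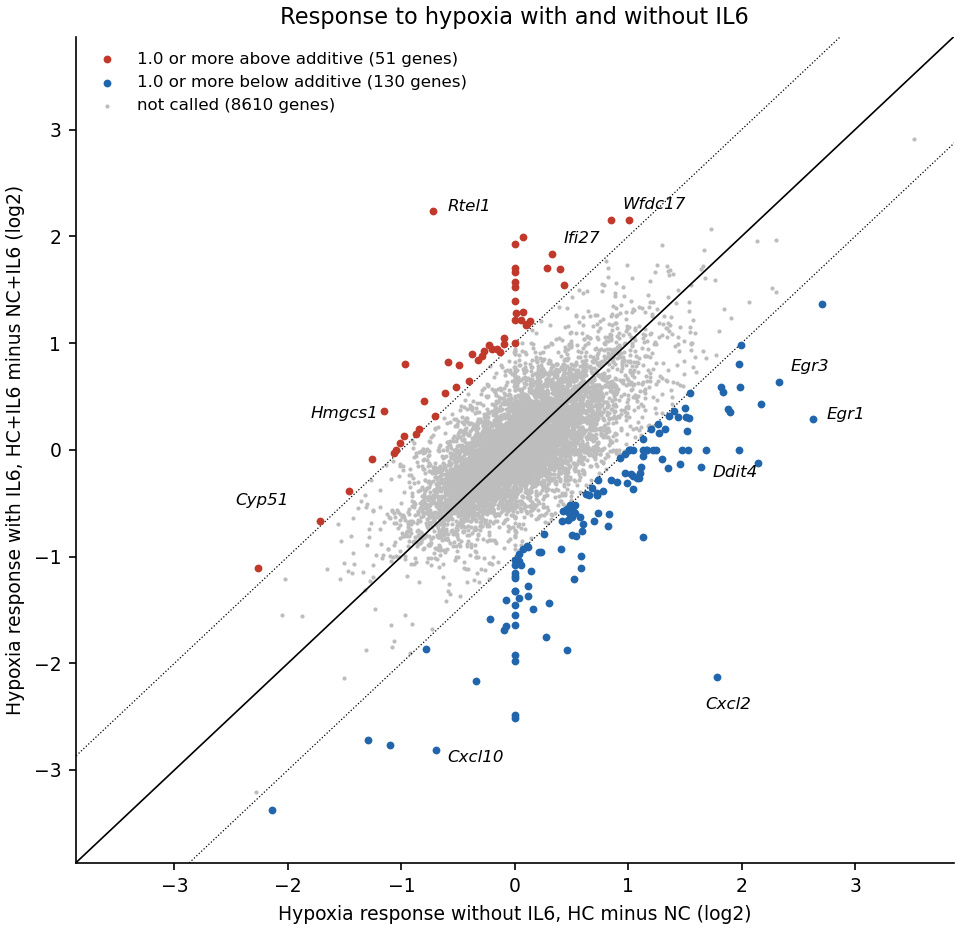
Log2 response to hypoxia with IL6 (HC+IL6 minus NC+IL6, vertical axis) against the response without IL6 (HC minus NC, horizontal axis) for the 8791 genes used, 1 point each. The solid line is additivity and the dotted lines mark an interaction of 1.0 and -1.0, with 51 genes on or above the upper line, 130 on or below the lower line, and Cxcl2 alone called in opposite directions. Points stacked at 0 on the horizontal axis are mostly genes raised to 7.5 in both HC and NC.

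The neutrophil chemokine Cxcl2 departed most from additivity. Its log2 signal was 10.26 in HC+IL6, 12.39 in NC+IL6, 9.28 in HC and 6.49 in NC, the last of which was raised to 7.5. Hypoxia thus lowered Cxcl2 by a log2 difference of -2.13 with IL6 and raised it by 1.78 or more without IL6, an interaction of -3.91 or lower, which is a departure of at least 15.1-fold. IL6 in turn raised it by 0.98 in hypoxia and by 4.89 or more in normoxia. The interferon-induced chemokine Cxcl10, which attracts T cells, had 8.23, 11.04, 8.01 and 8.70 in the same order of arrays, which is kept throughout with signals as deposited, an interaction of -2.12. Cxcl10 was highest in NC+IL6, and the IL6 response of 2.34 in normoxia was 0.22 in hypoxia. Acod1, which makes itaconate in activated macrophages, had 8.42, 10.30, 7.96 and 7.46, an interaction of -2.34 or lower. Tnf had 9.61, 10.21, 8.83 and 8.48 and an interaction of -0.95, which was not called. Ccl3, at 0.03, and Ccl4, at -0.58, were not called either. Among 20 chemokine and cytokine genes used, 2 were below additive and 1 above (Il10, not bounded), against 1.48% and 0.58% of all genes, with a median of -0.20. With signals raised to a floor of 8.5 in place of 7.5, 0 were above.

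Genes induced by type I interferon had the lowest median of all lists with 20 or more genes used. Of 48 members used, 16 (33.3%) were below additive and 0 above, against 1.48% and 0.58% of all genes, 41 had a negative interaction and the median was -0.67, beside 0.00 over all genes. Members that reached 7.5 in NC+IL6 alone had to come out negative, so this count and median are a description. At 7.5 or more on all 4 arrays there were 33 members, of which 7 were below and 0 above with a median of -0.56, beside 83 below and 29 above of 7690 genes. In the single comparisons, 28 of the 48 were lower in hypoxia with IL6 and 7 without IL6, and IL6 raised 14 in hypoxia and 38 in normoxia. Negative values are common in genes that IL6 raised. Of all 200 genes raised 2-fold or more by IL6 alone and changed less by hypoxia alone, 159 were negative. Of these 200, 40 were below and 5 above, with a median of -0.49, so the direction is not particular to this list. The median IL6 response of the list was 0.68 in hypoxia and 1.38 in normoxia. On the linear scale 23 members were below additive.

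Ifit2, which binds viral RNA, was measured on all arrays, at 8.07 in HC+IL6, 9.82 in NC+IL6, 8.22 in HC and 7.94 in NC. NC+IL6 stood alone above the other 3, and the interaction was -2.03. Ifih1, the cytosolic sensor of long double-stranded RNA also called MDA5, had 10.35, 11.63, 9.68 and 9.57, an interaction of -1.39. Epsti1, an interferon-induced gene of macrophages outside the list, had 9.11, 10.55, 8.84 and 8.53, an interaction of -1.74, and -1.81 in its other probe set. Trim30a, which restrains Toll-like receptor signaling, had -1.42 and, in its other probe set, -1.93. Ifi202b, a DNA-binding member of the p200 family outside the list, differed in that IL6 also raised it strongly in hypoxia. It had 11.38, 12.59, 8.65 and 8.13, an interaction of -1.73. The GTPases Ifi47 and Irgm1, which act on vacuoles holding microbes, had -1.28 and -1.08, the last falling short of 1.0 after quantile normalization. Samd9l, an antiviral translation inhibitor, had -1.30.

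For 8 of the 16 interferon genes below additive, signals under 7.5 entered with both signs, so their interactions are not bounded. These include Ifit1 and Ifit3, which were above 7.5 only in NC+IL6, at 9.14 and 8.82, and Cmpk2 and Rsad2, the neighbours that make and use CTP against viruses, at 9.99 and 9.48 there. Zbp1, which senses nucleic acids in the Z form, had 8.17 in HC+IL6 against 10.68 in NC+IL6, and its interaction of -2.51 on raised signals was 0.47 on signals as deposited, since its HC signal was 3.01 and its NC signal 5.98. Not every member followed. Oas1a, which makes the messenger that activates RNase L, had 12.74, 13.86, 10.97 and 12.62, an interaction of 0.53, and hypoxia lowered it on both sides. Ifitm3, a barrier to viral entry, had 0.50. Rtp4, a further interferon-induced gene, had 0.32, and Irf7, which drives interferon synthesis, had 0.19 or higher. Ifi27, an interferon-induced gene of mitochondria outside the list, was above additive, at 12.91, 11.07, 12.48 and 12.15, with an interaction of 1.51 in each of its 2 probe sets. It was lowest in NC+IL6, where the genes named above were highest.

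**Figure D2:**
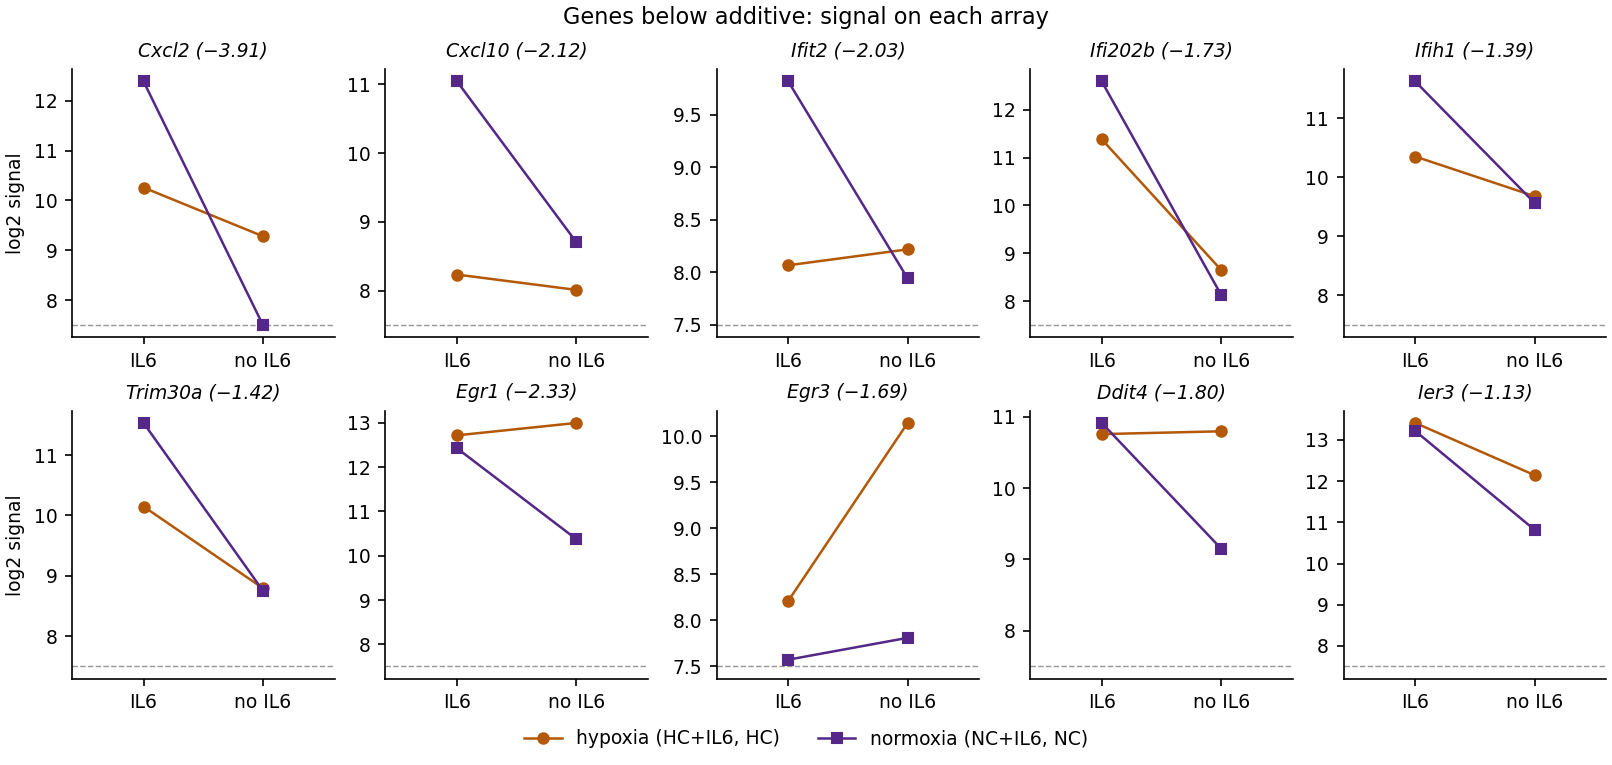
Log2 signal on each of the 4 arrays for 10 genes below additive, with IL6 and no IL6 on the horizontal axis, hypoxia in orange circles, normoxia in purple squares, and a vertical axis of its own for each gene. The interaction (log2) stands beside the name, the dashed line is 7.5, parallel lines would mean additivity, and each point is 1 array. In the interferon-induced genes and Cxcl2 the NC+IL6 signal stands highest, while in Egr1 and Ddit4 the NC signal stands lowest.

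Several of the genes below additive lie close together in the genome. In the following groups each gene lay within 200 kb of the next. Chromosome 1 held Ifi209, Ifi204, Mndal and Ifi202b, chromosome 19 held Ifit2, Ifit3 and Ifit1, and chromosome 12 held Rsad2 and Cmpk2. Trim12c and Trim30a were on chromosome 7, and Gm20559 and Samd9l and, apart from them, Ppm1k and Herc6 on chromosome 6. Aif1 and Ltb and, apart from them, Ier3 and H2-T24 were on chromosome 17. The Ifi200, Ifit and Trim genes among them are families of similar copies, and probes for near-identical copies can share signal. Above additive, the chemokine receptors Ccr1 and Ccr2 lie together on chromosome 9, and Gmeb2 and Rtel1 on chromosome 2.

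The promoters of these genes are shown because interferon acts through a short promoter element, the ISRE. The letters GAAANNGAA, on either strand, occurred in the 300 bases around the start (250 before and 50 after) of 9 of the 14 interferon-induced genes below additive with a promoter on record. They occurred in 24 of 108 genes below additive (22.2%), in 5 of 40 above additive (12.5%), in 7.12% of the genes used and in 8.57% of all 27025 promoters. Sequences are from RefSeq (GRCm38.p6), each gene by its first listed start, and capitals mark the matched letters.
Cxcl10 (chr5:92348840-92349139, minus strand): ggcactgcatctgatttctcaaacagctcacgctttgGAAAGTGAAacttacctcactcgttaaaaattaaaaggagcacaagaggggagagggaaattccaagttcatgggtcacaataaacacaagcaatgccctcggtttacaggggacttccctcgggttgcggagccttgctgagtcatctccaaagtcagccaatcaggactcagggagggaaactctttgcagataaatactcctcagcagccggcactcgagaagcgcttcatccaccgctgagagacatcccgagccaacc
Ifit3 (chr19:34583279-34583578, plus strand): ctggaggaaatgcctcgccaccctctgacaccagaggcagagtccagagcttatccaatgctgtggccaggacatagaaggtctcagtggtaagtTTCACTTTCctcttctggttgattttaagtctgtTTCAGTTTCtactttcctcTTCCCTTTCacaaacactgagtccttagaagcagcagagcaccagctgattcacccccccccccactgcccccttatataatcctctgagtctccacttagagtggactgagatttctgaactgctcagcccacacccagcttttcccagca
Ifih1 (chr2:62646206-62646505, minus strand): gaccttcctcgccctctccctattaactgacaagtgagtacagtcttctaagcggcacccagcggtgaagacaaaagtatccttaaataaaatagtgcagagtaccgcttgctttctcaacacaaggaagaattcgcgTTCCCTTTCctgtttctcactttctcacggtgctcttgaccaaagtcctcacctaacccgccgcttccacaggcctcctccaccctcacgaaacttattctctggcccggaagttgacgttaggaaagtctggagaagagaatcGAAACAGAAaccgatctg
In Cxcl10, which is outside the list and not among the 14, the letters begin 213 bases before the start. Ifit3 holds 3 copies and Ifih1 holds 2. Ifit2, at -2.03, held no match in this window. The letters describe these windows and do not show that a factor was bound.

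The immediate early genes driven by ERK showed another pattern. Of 29 members used, 5 were below and 0 above, against 1.48% and 0.58% of all genes, 23 had a negative interaction and the median was -0.44. Hypoxia raised 1 of the 29 with IL6 and 8 without IL6. The zinc finger factor Egr1 had 12.72 in HC+IL6, 12.42 in NC+IL6, 13.00 in HC and 10.37 in NC. NC stood alone below the other 3, so that each agent by itself brought Egr1 close to the level of both, and the interaction was -2.33. Egr3 had 8.21, 7.57, 10.14 and 7.81, an interaction of -1.69. It was high only in HC, and IL6 lowered it there by a log2 difference of -1.93. Egr2 had 8.80, 8.25, 9.34 and 6.79, an interaction of -1.29 or lower, with -0.61 in its other probe set. Egr2 was not called with a floor of 8.5 or with the mean of probe sets. Ier3, a stress-induced survival gene, had 13.41, 13.22, 12.15 and 10.82, an interaction of -1.13, and Atf3, a stress-induced repressor, had 10.05, 10.43, 10.35 and 9.58, an interaction of -1.16. Dusp1 and Fos had -0.82 and -0.67, and Jun had 0.07. Dusp6, the ERK phosphatase whose RNA follows ERK activity, rose with each agent, at 11.85, 10.74, 10.68 and 9.13, and had -0.44. Of 23 members of the MAPK cascade 0 were called, and they lay between -0.33 and 0.68. The highest was the kinase Braf, whose other probe sets lay between -0.95 and 0.45, and the kinases Mapk8, Mapk9 and Mapk14 had 0.14, -0.01 and -0.20. On the linear scale Egr1 had -0.87, Ier3 -0.17, Atf3 -0.86 and Egr2 -0.79, and 2 members of the list were below additive, with a median of -0.16.

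A similar shape, with NC alone at the bottom, was found in genes of other functions. Genes raised by each agent alone have NC below HC and NC+IL6 by definition. Of all 42 genes raised 2-fold or more by each alone, 41 were negative, 13 were below and 0 above. The genes named here are examples of this shape. Ddit4, also called REDD1, an inhibitor of mTORC1 induced by hypoxia and by stress, had 10.76, 10.91, 10.80 and 9.15, an interaction of -1.80, which was -0.86 on the linear scale. Sgk1, a kinase of ion transport and survival, had 10.12, 9.76, 9.41 and 7.51, an interaction of -1.54 (-0.29 on the linear scale). The complement receptors C3ar1 and C5ar1 had -1.40 and -1.30, with C3ar1 at 11.68, 11.10, 10.92 and 8.93 and its other probe sets between -1.67 and -1.28, and on the linear scale C3ar1 had -0.15 and C5ar1 -0.64. Nfkbie, an inhibitor of NF-κB, had 9.55, 9.73, 9.99 and 8.63, an interaction of -1.52 (-0.96 on the linear scale). Of 22 NF-κB feedback genes 3 were below additive and 0 above, against 1.48% and 0.58% of all genes, and 1 was below with the mean of probe sets. One of the 3 was Nfkbiz, an atypical inhibitor of the family, at -1.02, whose other probe sets had -0.20 and 0.12, while Nfkbia, the main inhibitor, had 0.05. Cpt1a, which admits fatty acids to mitochondria, had 10.19, 10.32, 10.82 and 8.68, an interaction of -2.27, and its other probe sets -0.99 and -0.79.

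Genes of the amino acid stress program under ATF4 had a smaller median. Of 35 members used 4 were below and 0 above, against 1.48% and 0.58% of all genes, and 1 of the 4 was Atf3, already counted among the ERK genes. Of the 35, 30 had a negative interaction and the median was -0.33, or -0.53 on the linear scale. Hypoxia lowered 9 of the 35 with IL6 and 6 without IL6, and IL6 raised 4 in hypoxia and 9 in normoxia. Pck2, the mitochondrial PEPCK, had 10.12, 11.17, 10.04 and 10.0, an interaction of -1.08, or -0.98 after quantile normalization. The pseudokinase Trib3 had 8.82, 10.98, 7.02 and 7.85, and the glutathione-degrading Chac1 had 7.65, 10.37, 7.25 and 8.79. Their interactions were -1.82 or higher and -1.42 or higher, and the other probe set of Trib3 had -2.54. Ddit3, the factor CHOP, had -0.89 and Atf4 itself -0.54. The letters TGATGNAAN, which stand for the composite element of C/EBP and ATF4, occurred in 8 of 108 promoters of genes below additive (7.41%), in 0 of 40 above, in 2.02% of genes used and in 4.04% of all promoters. Besides Atf3, Trib3 and Arid5b these were the genes Slc1a4, Traf1 and Sh3bp5l and both shown here, with the matched letters in capitals.
Chac1 (chr2:119350992-119351291, plus strand): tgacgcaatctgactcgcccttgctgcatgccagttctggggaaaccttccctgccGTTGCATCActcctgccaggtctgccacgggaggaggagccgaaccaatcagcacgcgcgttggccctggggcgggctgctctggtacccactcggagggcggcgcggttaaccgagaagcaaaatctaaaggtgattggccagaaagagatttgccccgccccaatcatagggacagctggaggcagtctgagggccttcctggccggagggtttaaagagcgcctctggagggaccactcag
Pck2 (chr14:55540016-55540315, plus strand): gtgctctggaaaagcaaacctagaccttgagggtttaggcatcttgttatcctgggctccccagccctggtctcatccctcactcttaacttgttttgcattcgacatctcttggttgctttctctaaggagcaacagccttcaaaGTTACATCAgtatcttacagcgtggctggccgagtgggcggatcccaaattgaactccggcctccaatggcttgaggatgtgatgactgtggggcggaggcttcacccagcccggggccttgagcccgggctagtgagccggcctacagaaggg
The letters begin 194 bases before the start in Chac1 and 104 before it in Pck2. Neither this element nor the ISRE letters contain another of the 10 motifs searched. Of these, the AP-1 site letters TGANTCA occurred in 15 of 108 genes below additive (13.9%), 4.48% of genes used and 7.93% of all promoters. The TATA box letters TATAAA occurred in 15.7% of genes below additive, 6.45% of genes used and 14.2% of all promoters. Sterol response letters, TCACNCCAC, occurred in 1 of 17 promoters of cholesterol synthesis genes and in 0.990% of genes used. The hypoxia response core letters ACGTG and GCGTG occurred in 18.5% and 42.6% of genes below additive, against 27.7% and 54.7% of genes used. STAT site letters, TTCNNNGAA, occurred in 8.33% of genes below additive and 6.75% of genes used. For NF-κB site letters, GGGANTTCC, these shares were 1.85% and 2.46%, and for EGR site letters, GCGTGGGCG, 0.926% and 1.36%.

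Cholesterol synthesis genes lay in the other direction. Of 21 members used, 4 (19.0%) were above additive and 0 below, against 0.58% and 1.48% of all genes, 20 had a positive interaction and the median was 0.81. Hypoxia lowered 1 of the 21 by 2-fold or more with IL6 and 16 without IL6. Positive values are common in such genes. Of all 79 genes lowered 2-fold or more by hypoxia alone and changed less by IL6 alone, 76 were positive. Of these 79, 8 were above and 0 below, with a median of 0.47, so the direction is not particular to this list. The median hypoxia response was -0.51 with IL6 and -1.09 without IL6, and the median IL6 response was 0.81 in hypoxia and -0.01 in normoxia. Hmgcs1, which makes HMG-CoA for the mevalonate pathway, had 12.94 in HC+IL6, 12.95 in NC+IL6, 11.95 in HC and 13.00 in NC. HC stood alone below the rest, and the interaction was 1.04, with the other 3 probe sets between 1.07 and 1.27. Cyp51, the lanosterol demethylase, which uses oxygen, had 11.44, 12.10, 10.25 and 11.97, an interaction of 1.05 in each of 2 probe sets, and 0.78 on the linear scale. Dhcr7, which carries out the last step to cholesterol, had 10.13, 10.16, 9.31 and 10.38, an interaction of 1.04. Hsd17b7, a sterol ketone reductase, also had 1.04, with its other probe sets at 0.49 and 1.31 and a mean over all 3 of 0.95. Sqle and Msmo1, oxygen-using enzymes of the same pathway, had 0.96 and 0.99, just short of a call, and Fdps and Fdft1, which make and join farnesyl units, had 0.87 each. The exception was Insig2, which holds SREBP in the endoplasmic reticulum and is not a target of SREBP-2, at 10.45, 10.28, 10.25 and 9.42, an interaction of -0.66.

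Fatty acid synthesis was less shifted, with 1 of 17 members above, 1 below and a median of 0.24. Scd1, the stearoyl-CoA desaturase, had 10.57, 11.69, 9.0 and 11.26, an interaction of 1.15, and 0.96 in its other probe set. Hypoxia lowered Scd1 on both sides, by -1.11 with IL6 and -2.26 without IL6, and on the linear scale the interaction was 0.18. Scd2 had 0.68 and Fasn 0.47. Hacd4, a dehydratase of fatty acid elongation, was below additive at 10.34, 8.97, 10.73 and 8.03, an interaction of -1.34 (-0.59 on the linear scale). Chaperones of the endoplasmic reticulum had a median of 0.25 over 24 members, of which 21 were positive and 0 were called. Hspa5, the chaperone BiP, had 0.49, Hyou1 had 0.67, and Dnajb9 had -0.52. Medians of 0.19 over 39 respiratory chain and ATP synthase subunits and 0.14 over 28 ribosomal protein genes were close to those of 17 housekeeping genes, at 0.15, and of the spike-in controls, at 0.11. After quantile normalization they were 0.09 for the respiratory genes and 0.00 for the ribosomal protein genes.

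**Figure D3:**
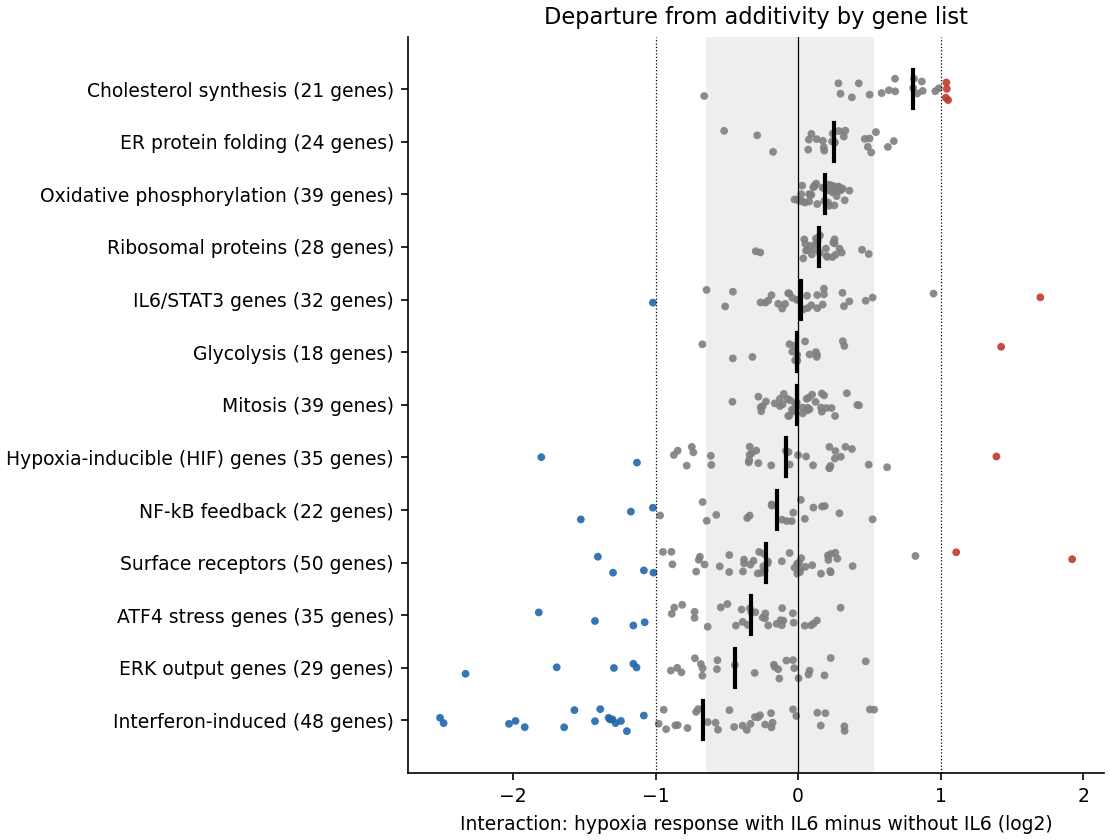
Interaction (log2, horizontal axis) of each member of 13 gene lists, 1 point per gene, with the list median as a black bar. Red and blue points are genes called above and below additive, dotted lines mark 1.0 and -1.0, and the grey band holds the middle 90% of all genes used, from -0.64 to 0.53. Cholesterol synthesis lies to the right with a median of 0.81 and interferon-induced genes to the left with a median of -0.67.

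Other genes above additive did not belong to 1 function. Wfdc17, a secreted protease inhibitor-like protein of activated macrophages, had 13.05 in HC+IL6, 10.90 in NC+IL6, 10.28 in HC and 9.43 in NC. Each agent raised it and HC+IL6 stood far above the rest, and the interaction was 1.30, or 1.79 on the linear scale. Cldn11, a tight junction protein, had 10.62, 9.82, 9.79 and 10.28, an interaction of 1.29. The zinc transporter Slc39a13 had 8.72, 8.36, 7.69 and 8.84, an interaction of 1.52, which was 0.57 with a floor of 8.5. The helicase Rtel1 had the highest interaction, at 12.18, 9.94, 7.42 and 8.22, which gives 2.96 or higher, but its other probe set had -0.17. Il10, a cytokine that restrains inflammation, was above 7.5 only in HC+IL6, at 9.20, and its interaction is not bounded. Ccr2, the receptor for Ccl2, had 9.05 in HC+IL6 and 7.94 in HC and was under 7.5 in NC+IL6 and NC. Ccr1, a receptor for Ccl3 and Ccl5, had 11.91, 9.92, 7.57 and 5.77, an interaction of 1.92 or lower, which was 0.20 with no floor, and its other probe set had 0.25. Ccr2 had 0.19 with no floor. Il10, Ccr2 and Cxcl10 are among the genes that the study shows for these arrays, so they are not independent evidence.

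Socs3, Stat3, the IL6 receptor subunits and Hif1a were close to additive, while HIF targets lay between -1.80 and 1.39. Socs3, the STAT3-induced inhibitor of gp130 signaling, had 13.55 in HC+IL6, 12.59 in NC+IL6, 11.26 in HC and 10.36 in NC. Hypoxia raised it by 0.96 with IL6 and by 0.90 without IL6, IL6 raised it by 2.29 in hypoxia and by 2.23 in normoxia, and the interaction was 0.06. Stat3 had 0.36, the receptor subunits Il6ra and Il6st 0.09 and -0.06, and Hif1a 0.17. Of 32 IL6 and STAT3 genes 1 was above (Il10) and 1 below (Cebpd, a transcription factor of the acute phase, at -1.02, or -0.92 after quantile normalization), with a median of 0.02. Of 35 HIF targets 1 was above and 2 below, against 0.58% and 1.48% of all genes, with a median of -0.09. On the linear scale 3 were above and 0 below, with a median of 0.21, and with no floor 1 was above and 4 below, with a median of -0.32. The 1 above, the collagen prolyl hydroxylase P4ha2, reached 7.5 in HC+IL6 alone, at 8.89, and is not bounded. The 2 below were Ddit4, at -1.80, and Ankzf1, at -1.13, with -0.14 in the other probe set of Ankzf1. Ndrg1, a HIF target of stress tolerance, had 14.73, 13.51, 12.97 and 11.40, an interaction of -0.35. Bnip3, which marks mitochondria for removal, had -0.87, and Vegfa, the vessel growth factor, -0.84 or lower, with 0.36 in its other probe set. Gbe1, the glycogen branching enzyme, had 0.62. In 18 glycolysis genes the median was -0.01, with Ldha at 0.13 and Pgk1 at -0.06. The 1 called member was Eno2, an enolase better known from neurons, at 9.38, 7.68, 7.78 and 6.09, an interaction of 1.42 or lower. This call rests on the raised NC signal, and with no floor Eno2 had 0.02. Of 39 mitosis genes and 38 DNA replication genes 0 were called, with medians of -0.01 and 0.10.

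**Figure D4:**
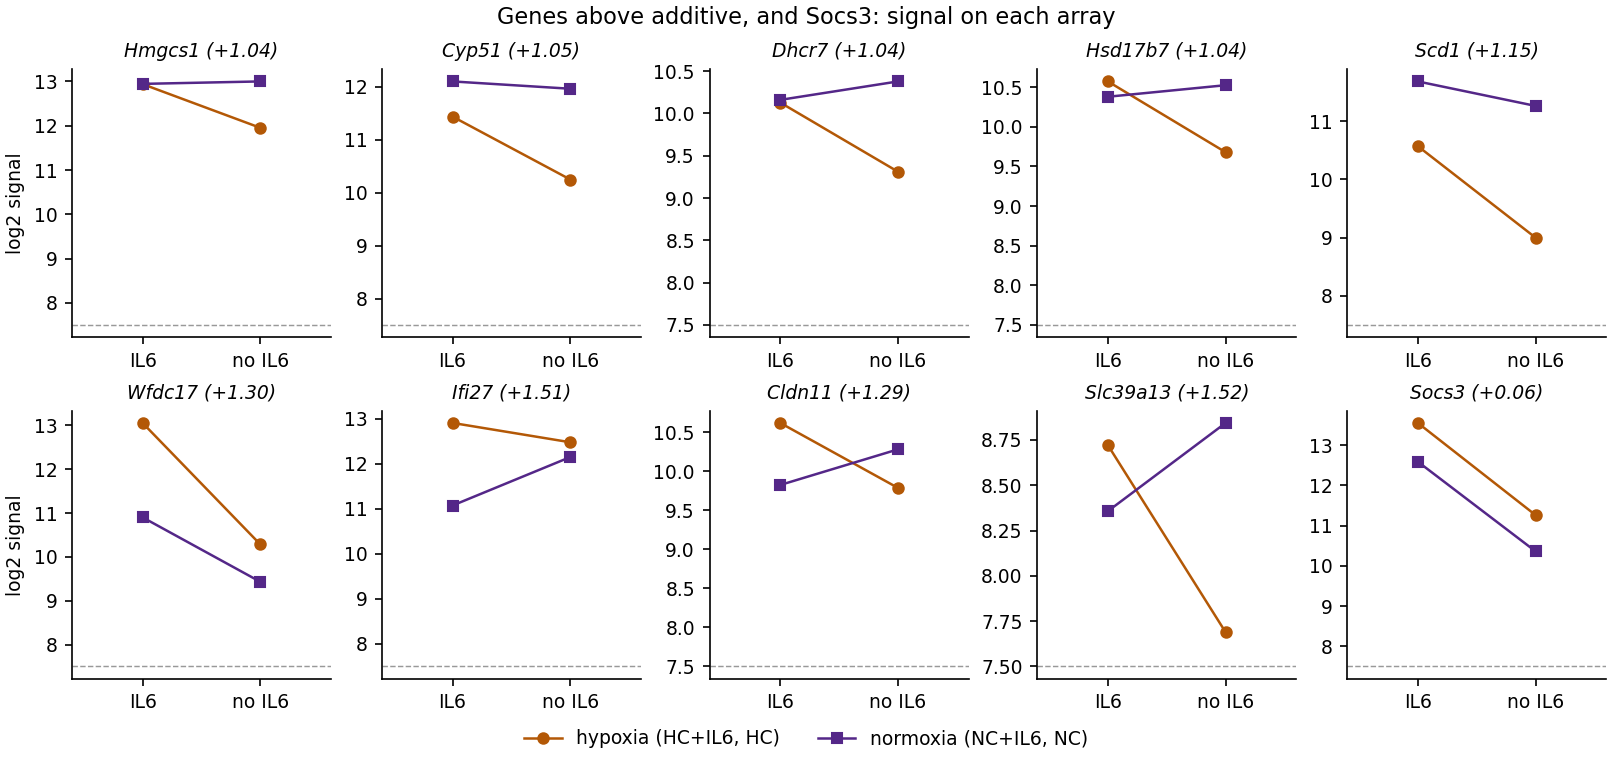
Log2 signal on each of the 4 arrays for 9 genes above additive and for Socs3, drawn as in the plot of genes below additive, with IL6 and no IL6 on the horizontal axis, hypoxia in orange circles and normoxia in purple squares. In Hmgcs1 and Dhcr7 the HC signal stands below the other 3, in Wfdc17 the HC+IL6 signal stands highest, and the lines of Socs3 are nearly parallel, with an interaction of 0.06.

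Of 50 surface receptors 2 were above and 4 below, against 0.58% and 1.48% of all genes, with a median of -0.22. Both above, Ccr1 and Ccr2, rest on signals raised to 7.5, and with no floor 0 were above and 6 below. The lectins Clec7a, the β-glucan receptor Dectin-1, and Clec4e, the receptor Mincle, had -1.01 and -1.08, and Clec7a had 9.84, 8.86, 11.64 and 9.64, so that HC stood highest. Clec7a had -0.98 with all arrays at a common median, and Clec4e had -0.76 on the linear scale. Of 24 genes of classical (M1) activation on the array, 11 were used, with 0 above, 2 below and a median of -0.38. The lowest was Cxcl2, already counted among the chemokines. Of 32 genes of alternative (M2) activation, 13 were used, with 2 above, 2 below and a median of -0.56. These counts stand against 0.58% and 1.48% of all genes. With a floor of 7.0 the M1 and M2 medians were -0.23 and -0.13. With a floor of 8.5 they were -0.54 and -0.23, and on the linear scale -0.53 and -0.17. Both M2 genes above, Il10 and Ccr2, are not bounded, and 0 were above with a floor of 8.5. The general macrophage markers Csf1r, Cd68 and Adgre1 had 0.01, 0.26 and -0.24, and Aif1 was the 1 called member of 22 identity genes, at -1.19 or lower, and -0.46 on the linear scale. Markers of fibroblasts, epithelium, endothelium and dendritic cells were under 7.5 on every array. Of the B cell markers 2 of 6 were used and both were below additive. Ighm, the μ heavy chain, had 9.42, 11.01, 11.77 and 11.98, an interaction of -1.37, with its other probe sets at -0.94 and -0.12, and Blnk, an adaptor, had 9.16, 9.75, 10.96 and 10.49, an interaction of -1.06, while the other 4 were under 7.5 everywhere. The summed signal of the B cell markers was 795 in HC+IL6, 1248 in NC+IL6, 2618 in HC and 2088 in NC. Of 7 T cell markers 2 were used, and Cd28 was above 7.5 only in HC, at 9.03. The part of these markers in the other results was not tested.

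Other probe sets of the called genes gave a second reading from the same arrays. Of the 130 genes below additive, 46 had 64 other probe sets, of which 58 (90.6%) had the same sign, 13 also passed -1.0 and 0 passed 1.0. Of the 51 above, 18 had 24 others, of which 19 (79.2%) had the same sign, 8 also passed 1.0 and 0 passed -1.0. Over all genes, 60.0% of 5963 other probe sets had the sign of the brightest. This share is not a like comparison, since called genes were chosen for size and 86.1% of all genes lay within 0.5 of additivity. The other readings were mostly smaller, and Siah1a, a ubiquitin ligase at -1.95, had 0.32 in its other probe set.

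**Figure D5:**
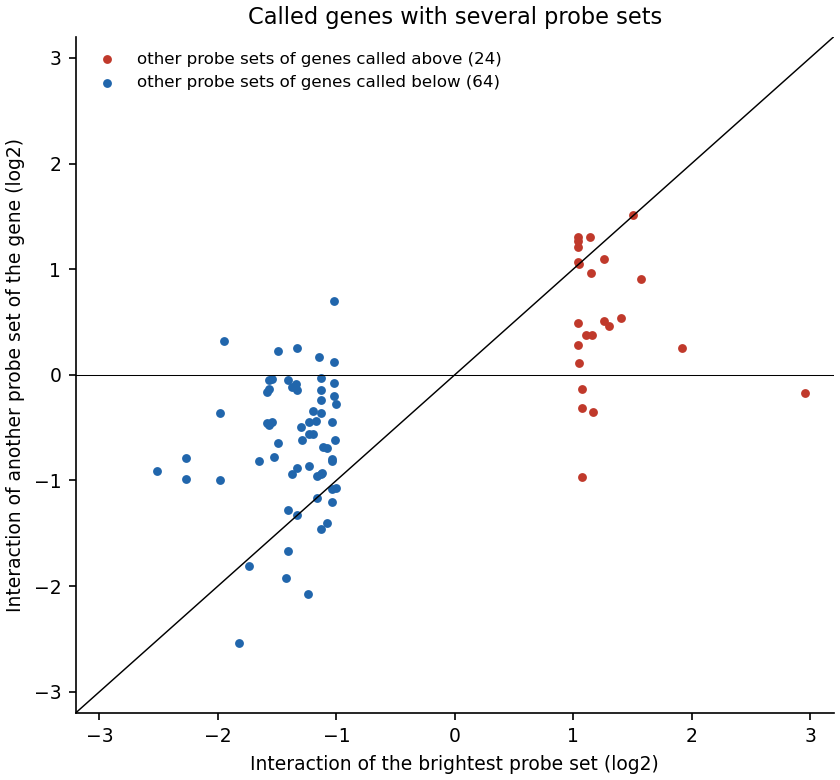
Interaction of each other probe set (log2, vertical axis) against the brightest probe set of the same gene (log2, horizontal axis) for genes called above (24 other probe sets, red) and below (64, blue). The diagonal is equality. Of the blue points 58 lie below 0 and of the red points 19 lie above it, and most lie nearer to 0 than the diagonal.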

How the data were processed

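Each of the 4 samples is 1 array. The authors deposited 1 table of log2 signals, which they had summarized and scaled with MAS5 (per the labels, with no version found). Trimmed by 2% at each end, the mean signal was 500 on every array. From the deposited log2 values, differences were computed with Python 3.11.15, numpy 2.4.6 and pandas 2.3.3, with no test, and figures were drawn with matplotlib 3.10.9. Of 35890 probe sets in the symbol table, 34958 had 1 symbol and were used for genes, 932 had several, and 9211 more were not listed. Columns of no sample numbered 0. Calculations were tested on simulated arrays with large interactions planted in bright probe sets and low noise. How well calls near 1.0 or in dim genes are recovered was not covered.

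Named genes are the 20 highest and 20 lowest by interaction that were measured on all arrays or bounded from below, genes with opposite hypoxia responses, and in each of 43 lists the called and up to 4 further members with the largest values. The study's array and marker genes and the main IL6 pathway genes also belong to this set. Only part of the set is described above. Fbxw22 (1.77 or higher), Rprd1a (1.41) and others of the 20 highest are left out, as are Rabl2 (-1.70) and others of the 20 lowest. Atf4, Ccl3, Cd68, Csf1r, Dusp6, Fos, Gbe1, Hif1a, Hspa5, Ifitm3, Insig2, Irf7, Jun, Ldha, Ndrg1, Nfkbia, Oas1a, Pgk1 and Rtp4, the genes at the edge of the rule, and those named for a neighbour or a motif were chosen after their values were seen. Members and lists were chosen with earlier results of these data known. Alternatives used limma 3.58.1 in R 4.3.3. Depth does not apply to arrays, and their number limits the precision.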

Additional observations from a re-analysis of the deposited data

Results flagged for a closer look

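Cxcl2 is flagged because its arrays moved in opposite directions under the same contrast. Hypoxia lowered it by a log2 difference of -2.13 with IL6 and raised it by 1.78 or more without IL6, an interaction of -3.91 or lower. Each side rests on 1 array per condition, and the difference was not tested. Cxcl2 has 1 probe set among those used.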

How the results depend on the processing

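In place of 51 genes above and 130 below additive, there were 21 and 73 with a floor of 8.5, 106 and 232 with no floor, 29 and 83 among probe sets at 7.5 or more on all 4 arrays, and 10 and 32 when called at 1.5. On the linear scale there were 88 above and 119 below, of which 39 and 83 were shared. A floor of 7.0, quantile normalization, cyclic loess, a common median, the mean of probe sets, no filter, and leaving out probe sets that can match several transcripts gave 43 to 65 above and 104 to 179 below. Of 86 named genes that were called, 27 were called in every alternative that measured them. The sign turned for 4: Zbp1 (0.47), P4ha2 (-0.020) and Flt1 (-1.68) with no floor, all with arrays under 7.5, and Cit (-0.35) without probe sets that can match several transcripts, where another probe set stood in for it. The median of cholesterol synthesis lay between 0.68 and 0.85, and that of interferon-induced genes between -0.94 and -0.56, over all alternatives. The ERK median was -0.15 with no filter, where members at the floor count as 0. Dim signals, 1 array per condition and bounds under 7.5 limit these values. No paired analysis was possible because each condition has 1 array and the labels give no replicate numbers.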
